A study of Mus musculus with 12 samples.

Results

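The comparison of free fatty acids (FFA) with medium alone (Media) asked which genes of a liver sinusoidal endothelial cell line differ when the cells are given oleic and palmitic acid, the main fatty acids of fatty liver. It used 6 of the 12 arrays of the series, the 3 labelled FFA and the 3 labelled Media, and each FFA array was set against the Media array with the same replicate number. All cells were TSEC, 1 immortalized murine line of liver sinusoidal endothelial cells. By the sample labels, FFA cells received 0.66 mM oleic acid and 0.33 mM palmitic acid, Media cells received neither, and all cells were harvested at 8 hours. The methods of the study give a lower concentration of oleic acid and a longer exposure, and which of these applies to the arrays is not known. The other 6 arrays, 3 labelled FFA+INT-767 and 3 labelled INT-767, carried the same 2 conditions in cells given 30 µM INT-767, which activates FXR and TGR5, the receptors for bile acids. They share no array with the comparison and were used only to ask whether a difference recurred. The labels call the arrays biological replicates and the study describes triplicate wells, so p-values measure only how these arrays scatter, and that scatter may be technical. Values are log2 expression values, and differences are FFA minus Media on the log2 scale, so that a difference of 1 is 2-fold.

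The arrays had medians of 5.77 to 5.87, and 24838 transcripts exceeded 4.5, the level the study takes as present, in at least 1 of the 6 arrays. These included 12997 genes with a symbol of their own. The label of the cells was checked against marker genes. Of 24 general endothelial markers, 11 were tested. Cd34 averaged 8.00 ± 1.38 in FFA and 8.82 ± 1.67 in Media (SD over 3 arrays a group), and the VEGF receptor Flt1 averaged 7.45 ± 0.18 in FFA and 7.96 ± 0.36 in Media. Egfl7, Esam, Flt4, Mcam, Ecscr and Sox17 averaged 4.55 to 5.43 in FFA and 4.69 to 5.48 in Media. The endothelial genes Kdr, Eng and Nos3 averaged 4.23 to 4.39 in FFA and 4.28 to 4.48 in Media, so their means lay below 4.5. Each still exceeded 4.5 in at least 1 array, which the study counts as present. These were Kdr in replicate 1 of FFA (4.75) and Media (4.91), Eng in Media replicate 3 (4.53) and Nos3 in FFA replicate 1 (4.52). Of 18 markers of sinusoidal endothelium 5 were tested. Ehd3 averaged 8.03 in FFA and 8.04 in Media, Maf 7.87 and 8.32, and F8 5.24 and 5.34. Gata4 averaged 6.598 in FFA and 6.745 in Media. Mrc1 averaged 4.302 in FFA and 4.324 in Media, and exceeded 4.5 only in Media replicate 2 (4.56). No transcript with the single symbol Stab1, Stab2, Lyve1, Pecam1 or Cdh5 was tested. The keratins Krt8 and Krt18, usually markers of epithelium, averaged 11.1 in FFA and 11.2 to 11.3 in Media, and a second transcript of Krt18 differed by 0.26 where the one that stands for the gene differed by -0.17. The marker genes thus went both ways and do not by themselves identify the cells as sinusoidal endothelium, and the line is called TSEC here.

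Fatty acids that enter a cell are bound by fatty acid binding proteins, activated to acyl-CoA, and then burned in mitochondria and peroxisomes, stored in lipid droplets or built into membranes. They are also ligands of the PPAR nuclear receptors, which switch on genes for these steps. Cells make their own cholesterol and fatty acids under control of the SREBP transcription factors, whose activation is restrained by sterols and by unsaturated fatty acids. Sinusoidal endothelial cells line the smallest vessels of the liver, are the first liver cells to meet lipids from the portal blood, and release chemokines, interferon-induced proteins and vasoactive peptides such as endothelin.

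More of the spread between the 6 arrays went with the replicate number than with FFA. Over the 12997 genes, replicate number accounted for 73.41% of the variance, FFA against Media for 11.3%, and the remainder was 15.29%. Over all 24838 transcripts these shares were 61.66%, 14.42% and 23.92% in the same order. The first and second principal components of the transcripts, with 33.5% and 30.6% of the variance over the arrays, set apart the replicate numbers. The third, with 13.9%, placed the FFA arrays at 25.71, 7.97 and 9.48 in replicates 1, 2 and 3, and the Media arrays at -15.71, -12.09 and -15.35. On this axis the groups did not overlap.

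**Figure D1:**
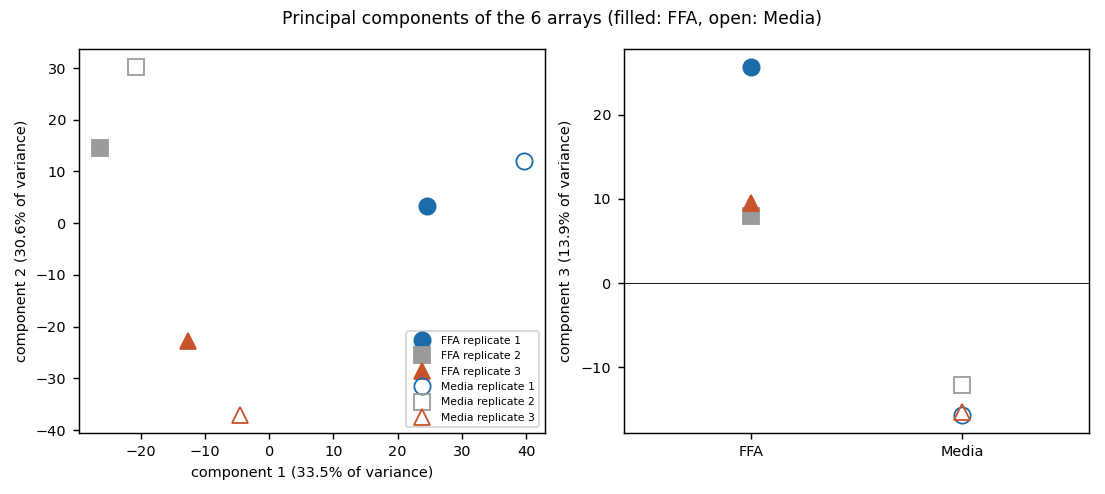
Scores of the 6 arrays on principal components 1 and 2 (left) and on component 3 by group (right), in arbitrary score units. Filled symbols are FFA and open symbols Media, with 1 shape and colour per replicate number. Arrays of 1 replicate number lie near each other on the left, and on the right the FFA arrays sit above 0 and the Media arrays below it.

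No transcript passed adjustment. By limma, 0 of 24838 transcripts (0%) had an adjusted p under 0.05 (smallest adjusted p = 1), and with the replicate number as a block the count was also 0 (0%, smallest adjusted p = 0.794). At an unadjusted p under 0.05 limma gave 333 transcripts higher in FFA (1.34%) and 333 lower (1.34%). With the block it gave 752 higher (3.03%) and 711 lower (2.86%). Counted by direction alone, 3791 transcripts (15.3%) were higher and 3135 (12.6%) lower in FFA in all 3 replicate pairs. Among genes, the mean difference was positive in 51.5% and negative in 48.5%. In all 3 pairs 2141 genes (16.5%) were higher and 1688 (13%) lower, and the groups did not overlap in 426 genes higher in FFA (3.28%) and 329 lower (2.53%). No gene described below passed adjustment by limma in either fit. Each is given with its values or differences, and some also with the standard error (SE) of the mean difference and the unadjusted p by limma. An SE that is not printed can exceed the difference, as for Cd34 (-0.82, SE 0.96), Tgm2 (-0.54, SE 0.72) and Cxcl12 (-0.75, SE 0.77).

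The 3 replicate pairs did not show the same picture. Of the 12997 genes, 6 (0.0462%), 2 (0.0154%) and 11 (0.0846%) were at least 2-fold higher in FFA in pairs 1, 2 and 3. At least 2-fold lower were 92 (0.708%), 4 (0.0308%) and 137 (1.05%). At a difference of at least 0.5, 185, 165 and 165 genes were higher and 562, 130 and 565 were lower. Among these genes pair 2 thus differed from the others mainly in how few were lower, and pairs 1 and 3 held many more lower than higher. Over all 24838 transcripts, which include those with several symbols or none, pair 2 did not stand apart in this way. There 119, 206 and 155 transcripts were at least 2-fold higher in pairs 1, 2 and 3, and 222, 167 and 246 were at least 2-fold lower. Across the genes, which are not independent replicates, the pair differences had a Pearson correlation of 0.264 between pairs 1 and 3, 0.174 between pairs 1 and 2 and -0.037 between pairs 2 and 3. Pairs 1 and 3 shared 4 of their genes that were 2-fold higher, 66.7% of those of pair 1 and 36.4% of those of pair 3. The 4 were Fabp4, Angptl4, Cd36 and Acot1. They shared 14 genes that were 2-fold lower, 15.2% of those of pair 1 and 10.2% of those of pair 3. In pair 2 these 14 genes had differences of -0.173 to 0.383 with a median of 0.05.

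**Figure D2:**
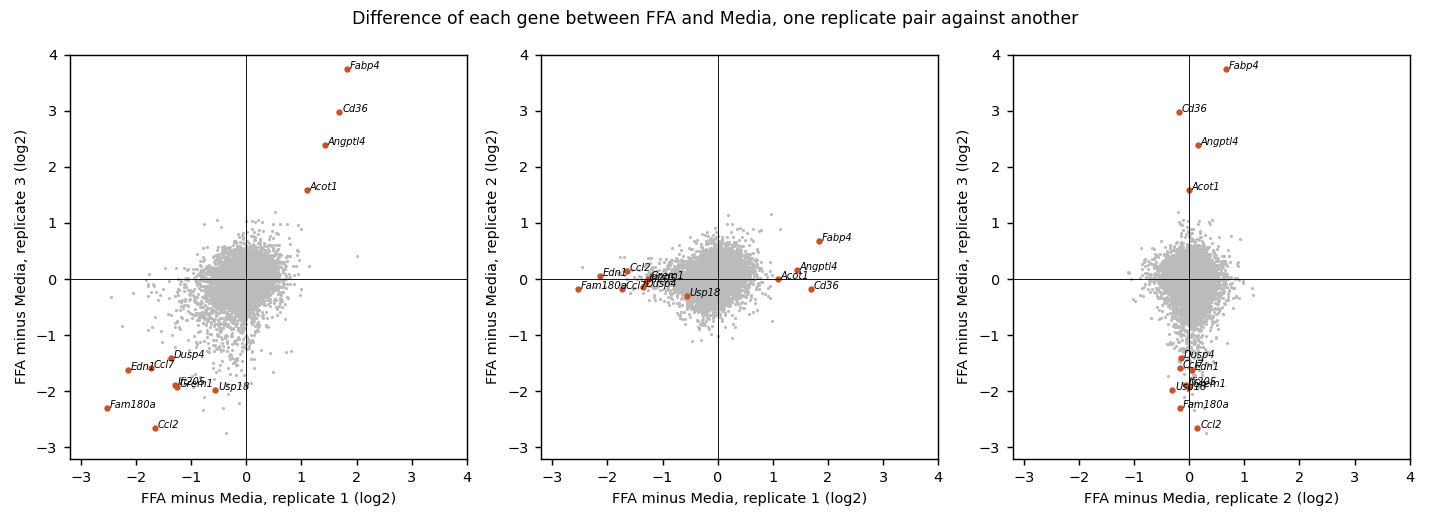
Difference between FFA and Media for each of 12997 genes (log2), plotted for replicate 1 against 3, 1 against 2 and 2 against 3. Each grey point is a gene and the named genes are in red. Fabp4, Cd36, Angptl4 and Acot1 lie at the upper right and Ccl2, Ccl7, Edn1 and Fam180a at the lower left for replicates 1 and 3, whereas their replicate 2 values lie close to 0 apart from that of Fabp4 (0.67).

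The differences without INT-767 were compared, replicate by replicate, with those in its presence. Across 12541 genes the difference between FFA+INT-767 and INT-767 correlated with that between FFA and Media at 0.458 in replicate 1, -0.011 in replicate 2 and 0.38 in replicate 3. The signs were the same for 59.8% of genes in replicate 1, 49.7% in replicate 2 and 58.4% in replicate 3. The 14 genes 2-fold lower in pairs 1 and 3 were lower in FFA+INT-767 than in INT-767 in 14, 7 and 10 cases in replicates 1, 2 and 3. In replicate 2, therefore, the differences without and with INT-767 did not go together across genes. This says nothing of their size. What set replicate 2 apart was not tested.

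**Figure D3:**
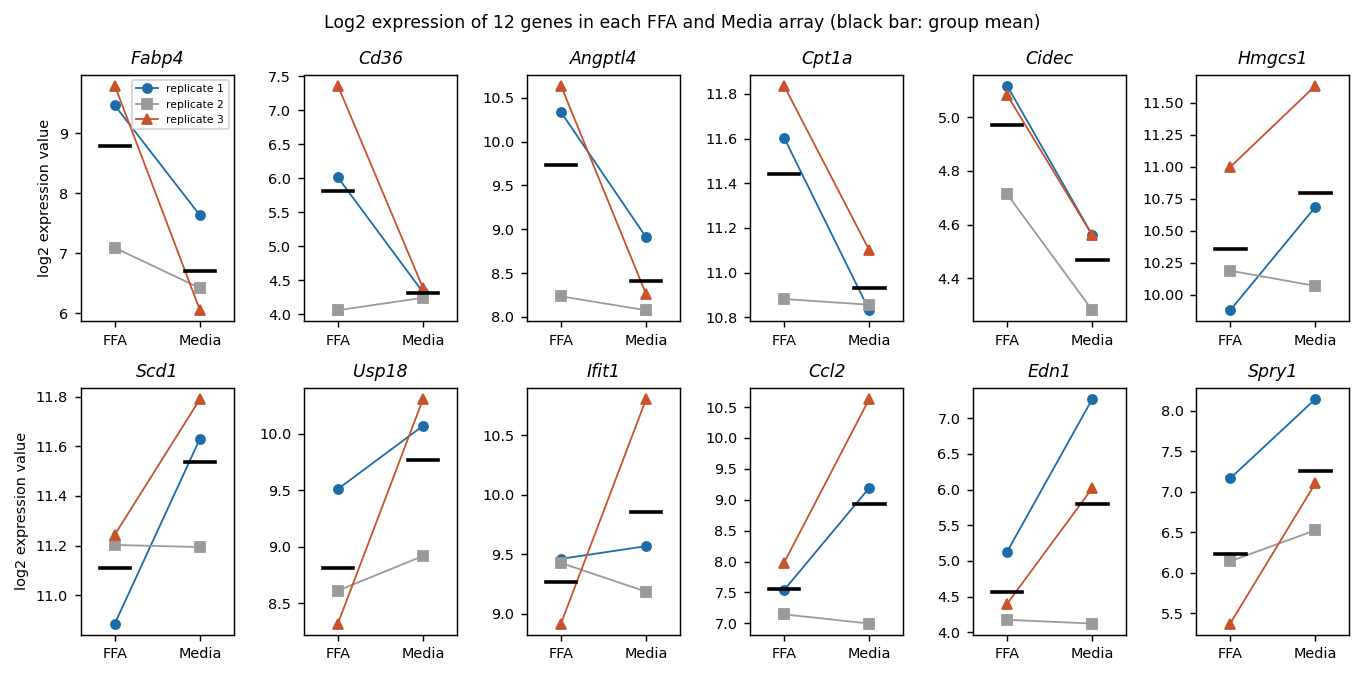
Log2 expression of 12 genes in each array, with FFA on the left and Media on the right of each panel. Symbols are arrays, lines join arrays of 1 replicate number and black bars are group means of 3 arrays. Panels have their own axes, which do not start at 0. In most panels the line of replicate 2 is nearly flat and those of replicates 1 and 3 slope, whereas for Cidec all 3 lines slope down to Media.

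The 4 genes with the largest positive mean differences, Fabp4, Cd36, Angptl4 and Acot1, take part in fatty acid and lipoprotein handling, and the next, Npr3, Chp1 and a pair of predicted genes, are given further below. Fabp4, a fatty acid binding protein and PPAR target, was 9.46, 7.09 and 9.79 in FFA replicates 1, 2 and 3, against 7.63, 6.42 and 6.05 in Media. It was higher in FFA in every pair, although FFA replicate 2 lay below Media replicate 1, and its mean difference was 2.08 (SE 0.75, unadjusted p = 0.0287 by limma). Cd36, the fatty acid translocase of the cell surface, was 6.01, 4.06 and 7.36 in FFA, against 4.32, 4.24 and 4.39 in Media. It lay below 4.5 in all Media arrays and in FFA replicate 2, and above it in the other FFA arrays, with a mean difference of 1.49 (SE 0.74). Angptl4, a secreted inhibitor of lipoprotein lipase, was 10.34, 8.23 and 10.64 in FFA, against 8.91, 8.08 and 8.26 in Media (difference 1.32, SE 0.62). The acyl-CoA thioesterase Acot1 was 6.73, 4.92 and 6.83 in FFA, against 5.63, 4.92 and 5.23 in Media (difference 0.89, SE 0.51). For Cd36, Angptl4 and Acot1 the FFA arrays of replicates 1 and 3 exceeded every Media array and FFA replicate 2 did not exceed them all. With INT-767 in both conditions the differences in replicates 1, 2 and 3 were 1.96, 0.32 and 3.12 for Fabp4, 0.77, -0.14 and 1.90 for Cd36, 1.97, -0.19 and 2.73 for Angptl4, and 0.16, 0.06 and 1.82 for Acot1. There too replicate 2 had the smallest values, and for Acot1 the difference lay mainly in replicate 3. Uptake and activation of fatty acids was covered by 15 genes, 10 with a higher and 5 with a lower mean in FFA, with a median difference of 0.06 against 0.004 over all genes, and 0.08, 0.01 and 0.07 in the pairs.

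Lipid storage genes followed with smaller differences. Cidec, which enlarges lipid droplets by fusing them, was 5.12, 4.71 and 5.08 in FFA, against 4.56, 4.28 and 4.56 in Media. Every FFA array exceeded every Media array, replicate 2 included, with pair differences of 0.56, 0.43 and 0.52 (mean 0.50, SE 0.16, unadjusted p = 0.015 by limma). Cidec was also higher in all 3 pairs of FFA+INT-767 and INT-767, by 0.43, 0.23 and 0.68. The droplet coat protein Plin2 was 10.23, 8.90 and 10.26 in FFA, against 9.75, 9.05 and 9.29 in Media. Dgat2, which makes the last bond of triglyceride, differed by 0.16, 0.35 and 1.02 in the 3 pairs, and Lpin1, a phosphatidate phosphatase on the same route, by -0.46, 0.30 and -1.28. The list of lipid droplet and triglyceride genes had 22 members, of which 16 had a higher and 6 a lower mean in FFA and 4 (18.2%, where 16.5% of all genes were) were higher in all 3 pairs, a share close to the background, with pair medians of 0.16, -0.11 and 0.21.

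Genes of fatty acid oxidation were mostly higher in FFA. Cpt1a, the gatekeeper of mitochondrial fatty acid import, had pair differences of 0.77, 0.03 and 0.74, and its partner of the inner membrane, Cpt2, had 0.42, 0.14 and 0.61. Cpt2 was 9.13, 8.93 and 9.07 in FFA, against 8.71, 8.79 and 8.46 in Media, so that the groups did not overlap (difference 0.39, SE 0.13, unadjusted p = 0.0219 by limma). Acadl, a dehydrogenase of long chains, differed by 0.57, 0.12 and 0.53, and Pex11a, which divides peroxisomes, by 0.74, 0.17 and 0.98. Pdk4, a kinase that turns pyruvate away from oxidation, differed by 0.58, 0.02 and 0.81. Of 33 genes of beta-oxidation 28 were higher and 5 lower in FFA. They were higher in all 3 pairs in 14 (42.4%), where 16.5% of all genes were. The median difference of the list was 0.15, and 0.22, 0.01 and 0.17 in the pairs. Of 36 PPAR target genes 29 were higher and 7 lower, with pair medians of 0.34, -0.002 and 0.33, and 31 of the 35 measured there were higher in FFA+INT-767 than in INT-767. The lists share genes such as Cpt1a, Acadl and Pex11a. Among the 7 exceptions was Tgm2, a transglutaminase, which was lower in FFA in every pair (-0.43, -0.38 and -0.80). Of the receptors, named here for their role whatever their values, Pparg was 10.71, 11.04 and 10.66 in FFA, against 10.72, 10.96 and 11.33 in Media. Ppard averaged 8.06 in FFA and 8.11 in Media, and Ppara lay near the level taken as present, at 4.58 in FFA and 4.61 in Media.

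**Figure D4:**
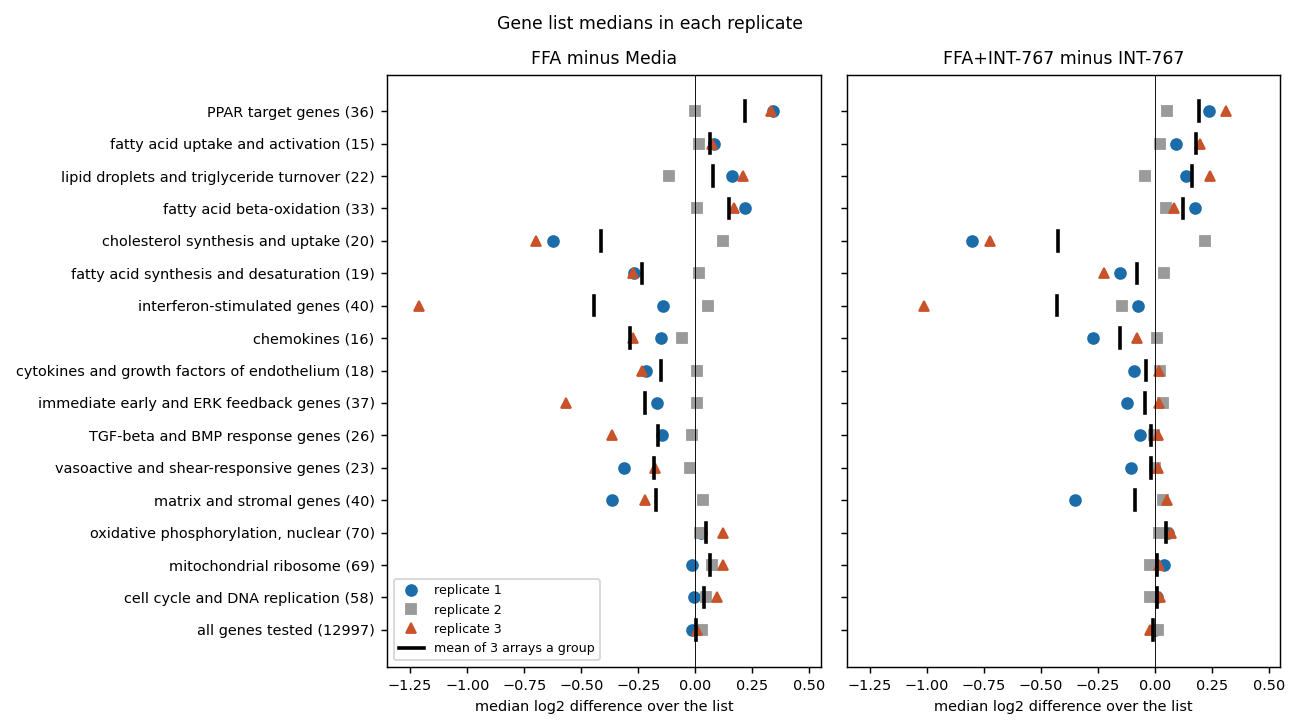
Median log2 difference over each gene list in replicates 1, 2 and 3 (symbols) and of the mean over 3 arrays a group (black bars), for FFA minus Media on the left and FFA+INT-767 minus INT-767 on the right. Numbers in parentheses are genes tested for FFA against Media. Replicate 2 (grey squares) lies near 0 for most lists on both sides. Cholesterol synthesis lies at -0.62 and -0.70 in replicates 1 and 3 on the left, and the interferon-stimulated genes at -1.21 in replicate 3.

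Genes that make cholesterol were lower in FFA in replicates 1 and 3 and not in replicate 2. Of 20 genes of cholesterol synthesis and uptake 19 had a lower mean in FFA, the exception being Ggps1, and the pair medians were -0.62, 0.12 and -0.70. In pair 2, 17 of the 20 were higher in FFA. Hmgcs1, the synthase that opens the mevalonate route, was 9.88, 10.19 and 10.998 in FFA, against 10.69, 10.07 and 11.63 in Media. The order of the arrays followed the replicate as much as the treatment, since FFA replicate 3 exceeded Media replicates 1 and 2. Insig1, which holds SREBP in the endoplasmic reticulum and is itself an SREBP target, differed by -0.99, 0.15 and -0.63, and the demethylase Cyp51 by -0.98, 0.18 and -0.70. Mvd, which decarboxylates mevalonate diphosphate, was lower in every pair (-0.86, -0.10 and -0.73), as was Srebf2, the transcription factor of the pathway (-0.54, -0.21 and -0.27). Hsd17b7 was the other of the 3 genes lower in all pairs (15%, where 13% of all genes were), a share close to the background. The median of the list was -0.41, and -0.27, -0.70 and -0.24 without both arrays of replicate 1, 2 or 3. With a single array left out, which unpairs the other array of its number, it was -0.03 without Media replicate 3 and -0.74 without Media replicate 2. With INT-767 all 20 genes had a lower mean in FFA+INT-767 than in INT-767, with medians of -0.80, 0.22 and -0.72 in the replicates.

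Fatty acid synthesis showed the same arrangement. Fasn, the fatty acid synthase, was 9.95, 10.37 and 10.09 in FFA, against 10.75, 10.33 and 10.68 in Media (difference -0.45, SE 0.17, unadjusted p = 0.0332 by limma, and 0.0599 with the replicate block). Scd1, the desaturase that makes oleic acid, was 10.89, 11.20 and 11.24 in FFA, against 11.63, 11.19 and 11.79 in Media. In both genes replicate 2 was nearly equal between FFA and Media. Elovl6, which lengthens palmitic acid, was lower in each pair (-0.73, -0.16 and -0.40), and so was Acss2, which makes acetyl-CoA from acetate (-0.38, -0.15 and -1.01). The list of fatty acid synthesis and desaturation held 19 genes, 14 with a lower and 5 with a higher mean in FFA, with pair medians of -0.27, 0.02 and -0.27. Of the 19, 6 (31.6%, where 13% of all genes were) were lower in all 3 pairs and 3 (15.8%) higher. The isoform Scd4 went the other way, by 0.11, 0.18 and 1.03. With INT-767 in both conditions the medians of the list were -0.15, 0.04 and -0.22. The cholesterol efflux pump Abca1 was 6.79, 7.07 and 6.65 in FFA, against 7.27, 7.33 and 7.59 in Media. It was lower in FFA in every pair and the groups did not overlap (difference -0.56, SE 0.15, unadjusted p = 0.00904 by limma). With INT-767 in both conditions Abca1 differed by -0.67, 0.05 and -0.76, so it was not lower in replicate 2. Abca1 had the largest difference in size among 9 target genes of the receptor LXR. Of these, 7 had a lower and 2 a higher mean in FFA, with a median of -0.05.

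Interferon-stimulated genes were lower in FFA mainly in replicate 3. Of 40 such genes 39 had a lower mean in FFA, and the list median was -0.44, made up of -0.14, 0.05 and -1.21 in the pairs. At least 2-fold lower were 28 of the 40 in pair 3, and 0 in pairs 1 and 2. The median level of the list was 7.60, 6.96 and 7.04 in FFA, against 7.77, 6.97 and 8.35 in Media, so Media replicate 3 was the array that stood highest. The INT-767 array of replicate 3 was also high, at 7.92, where the FFA+INT-767 arrays were 7.33, 6.81 and 7.04 and the other INT-767 arrays 7.49 and 7.01. In replicate 3, thus, both arrays without FFA were higher than both arrays with it. The median of the list for FFA against Media was -0.02 without both arrays of replicate 3, and -0.11 without Media replicate 3 alone. Usp18, a protease that removes ISG15 from proteins, was 9.51, 8.61 and 8.32 in FFA, against 10.07, 8.92 and 10.30 in Media. Oas2, which activates RNA decay in infected cells, was 5.35, 4.77 and 4.83 in FFA, against 6.13, 4.68 and 7.17 in Media. Ifit1, an RNA-binding antiviral protein, was 9.46, 9.43 and 8.92 in FFA, against 9.57, 9.19 and 10.80 in Media. For Oas2 and Ifit1 pair 3 carried most of the difference and pair 2 was positive. Ifit3 was the 1 gene of the list with a higher mean in FFA (0.04). Of the 40 genes 12 (30%) were lower in all 3 pairs, where 13% of all genes were.

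The promoters of these genes were read for the interferon-stimulated response element, a DNA motif common to genes that respond to interferon, in the 250 bases before the gene start (RefSeq, GRCm38.p6). The motif was taken as GAAA, any 2 bases and GAAA, on either strand, where it reads TTTC, any 2 bases and TTTC. It was found in 13 of the 29 promoters that matched a gene of the list (44.8%), in 281 of 10192 promoters of all genes tested (2.76%) and in 3.04% of all 27025 promoters of the table. The windows below show it for 7 genes whose difference in pair 3 was below -1, as the stretch of sequence that these promoters share, with matches in capitals and 15 bases on each side, on the strand of the gene.
Igtp, chr11:58199507-58199546, plus strand: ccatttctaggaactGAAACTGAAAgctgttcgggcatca
Irgm2, chr11:58214898-58214937, plus strand: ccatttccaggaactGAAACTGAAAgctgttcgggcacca
Irgm1, chr11:48871421-48871465, minus strand: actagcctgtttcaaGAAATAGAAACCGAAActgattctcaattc
Oas3, chr5:120777710-120777749, minus strand: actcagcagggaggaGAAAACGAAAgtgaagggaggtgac
Bst2, chr8:71537572-71537617, minus strand: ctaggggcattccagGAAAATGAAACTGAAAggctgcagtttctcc
Isg15, chr4:156200860-156200911, minus strand: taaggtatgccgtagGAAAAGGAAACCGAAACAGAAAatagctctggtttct
Ifit1, chr19:34640770-34640828, plus strand: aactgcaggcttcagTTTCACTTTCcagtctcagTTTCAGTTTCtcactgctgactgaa
The immunity GTPase genes Igtp and Irgm2 lie on the same chromosome and have nearly the same window, and probes of such close relatives may share signal. Igtp was 7.07, 5.92 and 6.42 in FFA, against 7.42, 5.86 and 8.30 in Media, and Irgm1, of the same family, was 7.22, 6.53 and 6.98 in FFA, against 7.39, 6.59 and 8.43 in Media. Bst2, which tethers virus particles to the cell, was 7.65, 6.89 and 6.78 in FFA, against 8.15, 6.84 and 8.41 in Media. In each of these 3 genes the difference in pair 2 lay between -0.06 and 0.07. Among cholesterol genes, the sterol regulatory element TCACNCCAC was found in 1 of 16 matched promoters, against 0.932% of the promoters of all genes tested. It is shown because it is the 1 match in the list.
Hmgcs1, chr13:119690199-119690237, plus strand: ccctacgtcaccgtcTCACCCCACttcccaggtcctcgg
The direct repeat of AGGTCA with 1 base between, which PPAR binds with its partner RXR, was found in 0 of 28 matched promoters of PPAR target genes, against 0.0392% of promoters of all genes tested. A match describes letters only, and no match says only that these letters are not in the window.

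Chemokines were among the genes with the largest negative differences. Ccl2, which attracts monocytes, was 7.54, 7.15 and 7.98 in FFA, against 9.19, 6.997 and 10.63 in Media (difference -1.38, SE 0.84). Its relative Ccl7 was 6.07, 5.45 and 5.62 in FFA, against 7.79, 5.62 and 7.21 in Media (difference -1.16, SE 0.52). Both were low in replicate 2 in either condition, and the FFA arrays of replicates 1 and 3 were closer to replicate 2 than the Media arrays were. Cxcl16, which attracts T cells carrying CXCR6, was 6.35, 6.32 and 6.27 in FFA, against 7.25, 6.51 and 7.39 in Media. It was lower in each pair without overlap (difference -0.74, SE 0.23, unadjusted p = 0.0155 by limma). Cxcl10, an interferon-induced chemokine, differed by -0.76, -0.09 and -2.11, and Cxcl12, which retains leukocytes and progenitors, by -1.36, -0.25 and -0.64. Cxcl15 differed by -1.21, 0.38 and -1.85, so it was higher in FFA in pair 2, and by -0.29, -0.01 and -0.85 with INT-767 in both conditions. Ccl5, which attracts T cells, differed by -0.19, -0.16 and -1.49. With INT-767 in both conditions the differences in replicates 1, 2 and 3 were -1.41, -0.68 and -0.94 for Ccl2, -0.50, -0.38 and -1.34 for Cxcl10 and -0.47, -0.87 and -1.77 for Ccl5, so that these 3 were lower in every replicate. They were -0.27, 0.02 and -0.23 for Ccl7, -1.24, 0.05 and 0.32 for Cxcl12 and -0.42, 0.05 and -0.18 for Cxcl16. Of 16 chemokines 11 were lower and 5 higher in FFA, with 6 lower in all 3 pairs (37.5%, against 13% of all genes) and a median of -0.29, with -0.15, -0.06 and -0.27 in the pairs. This median was -0.20, -0.76 and -0.18 without both arrays of replicate 1, 2 or 3, between -0.83 (without Media replicate 2) and -0.10 (without Media replicate 3) with 1 array left out, and -0.54 where a transcript had to exceed 4.5 in at least 3 arrays. Ccl25 and Cx3cl1 were higher in every pair, by 0.39, 0.14 and 0.26 and by 0.12, 0.40 and 0.15.

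Other signals of inflammation and growth also had lower means in FFA. The alarmin Il33 was 7.18, 7.49 and 7.13 in FFA, against 8.43, 7.52 and 7.87 in Media (difference -0.68, SE 0.24, unadjusted p = 0.0265 by limma). Dusp4, a phosphatase of MAP kinases, was 8.61, 8.71 and 8.40 in FFA, against 9.97, 8.85 and 9.81 in Media (difference -0.97, SE 0.29, unadjusted p = 0.0135 by limma). In both genes the groups did not overlap, and the gap in replicate 2 was the smallest. Between FFA+INT-767 and INT-767 the replicates differed by -0.72, -0.11 and 0.12 for Il33 and by -0.71, 0.05 and 0.35 for Dusp4. Spry1, an inhibitor of receptor tyrosine kinase signaling, differed by -0.98, -0.38 and -1.73 in the pairs, and the growth regulator Myc differed by -0.67, 0.08 and -1.31. Of 37 immediate early and ERK feedback genes 33 had a lower mean in FFA, with pair medians of -0.17, 0.01 and -0.57. With INT-767 in both conditions the medians of the list were -0.12, 0.04 and 0.02, and whether the 2 settings differ was not tested for the list. Egr1, an early transcription factor, was an exception with 0.35, 0.16 and 0.25. Of 26 genes of the TGF-beta and BMP response 20 were lower, with medians of -0.15, -0.02 and -0.37. Between FFA+INT-767 and INT-767 these medians were -0.06, -0.004 and 0.02. Ccn2, a matricellular protein induced by TGF-beta, was 8.71, 8.07 and 8.43 in FFA, against 9.29, 8.03 and 10.21 in Media (mean difference -0.77, and -0.07 for its second transcript). Its mean difference was 0.10 with INT-767 in both conditions. The cell cycle inhibitor Cdkn2b was lower in each pair without overlap (-0.52, -0.17 and -1.002). Of 18 cytokines and growth factors 15 were lower, and Tnfsf9, a ligand of the TNF family, was higher in each pair, by 0.22, 0.42 and 1.06. The medians of this list were -0.22, 0.006 and -0.24 in the pairs, and -0.09, 0.02 and 0.02 with INT-767 in both conditions. For the TGF-beta and cytokine lists too, whether the 2 settings differ was not tested.

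Endothelin and most matrix genes were lower in FFA in replicates 1 and 3. Edn1, which encodes the vasoconstrictor endothelin, was 5.13, 4.17 and 4.40 in FFA, against 7.27, 4.12 and 6.02 in Media (difference -1.24, SE 0.74). In replicate 2 it lay below 4.5 in both conditions. The thrombin receptor thrombomodulin, Thbd, was lower in each pair (-0.69, -0.19 and -0.76). Npr3, which clears natriuretic peptides, was 6.77, 4.05 and 4.68 in FFA, against 4.77, 4.08 and 4.26 in Media, so that its positive difference came mainly from FFA replicate 1. Of 23 vasoactive and shear-responsive genes 17 were lower and 6 higher, with pair medians of -0.31, -0.02 and -0.18. Between FFA+INT-767 and INT-767 these medians were -0.10, -0.0004 and 0.01, with 12 genes lower and 10 higher in the mean. Edn1 differed there by -0.93, -0.13 and -0.03. Of 40 matrix and stromal genes 34 had a lower mean in FFA, with pair medians of -0.37, 0.03 and -0.22. Lower in pairs 1, 2 and 3 were 37, 15 and 29 of the 40. Between FFA+INT-767 and INT-767 the medians of the matrix list were -0.35, 0.04 and 0.06 in replicates 1, 2 and 3. There 29 of 39 genes had a lower mean and 10 a higher one. Whether the 2 settings differ was not tested for the vasoactive or the matrix list. The collagenase Mmp13, with the largest mean difference of the list in size, was 5.63, 6.54 and 6.69 in FFA, against 6.46, 6.47 and 8.43 in Media (difference -0.83, SE 0.57). The metalloproteinase inhibitor Timp3 differed by -1.06, 0.09 and -1.09 in the pairs, and Thbs1, which encodes thrombospondin, by -0.60, -0.02 and -1.10. In replicate 3 with INT-767 in both conditions the differences were 0.54 for Timp3, 0.24 for Thbs1 and -0.61 for Mmp13. The fibrillar collagen Col1a2 was 5.25, 4.52 and 4.54 in FFA, against 6.98, 4.37 and 4.77 in Media. Col1a2 thus differed mainly in replicate 1, Mmp13 and Thbs1 most in replicate 3, and Timp3 alike in both. The 6 matrix genes with a higher mean were Col4a1 (0.16), Col4a2 (0.14), Nid1 (0.12), Hspg2 (0.06) and, near 0 and below it when arrays were shifted to the same median, Col18a1 and Nid2, all encoding proteins of the basement membrane, and they are named here after their values were seen. Their differences were small against their standard errors of 0.11 to 0.83. Markers of mesenchymal and stellate cells also had lower means in FFA, and 4 of those tested, Col1a1, Col1a2, Col3a1 and Dcn, are members of the matrix list as well. Of 16 markers 11 were tested and all 11 had a lower mean, with pair medians of -0.61, -0.09 and -0.14. So did 10 of 11 general endothelial and 5 of 5 sinusoidal markers. The median of the mesenchymal markers was -0.34, and -0.16, -0.56 and -0.44 without both arrays of replicate 1, 2 or 3, but it lay between -0.84 (without FFA replicate 1) and 0.39 (without Media replicate 1) with 1 array left out. Their summed level, the log2 of the sum of unlogged values, was 12.15, 10.47 and 10.54 in FFA, against 12.88, 10.62 and 10.91 in Media. The median of the matrix list was -0.17, and -0.08, -0.28 and -0.17 without both arrays of replicate 1, 2 or 3, and 0.13 without Media replicate 1 alone, where mesenchymal markers were highest. The 36 matrix genes that are not among the markers had pair medians of -0.33, 0.03 and -0.22. Fewer cells of a type and less RNA per cell cannot be told apart in such samples, and the part of these markers in the matrix result was not tested.

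The largest negative differences over all genes also followed replicates 1 and 3. Fam180a, a gene of little known function, was 6.54, 4.94 and 5.62 in FFA, against 9.07, 5.12 and 7.92 in Media (difference -1.67, SE 0.97), and differed by -1.26 with INT-767 in both conditions. The BMP antagonist Grem1 was 7.35, 9.28 and 6.51 in FFA, against 8.61, 9.27 and 8.43 in Media (difference -1.06, SE 0.66), so that in replicate 2 it was high in both conditions. Ifi205, an interferon-inducible gene, was 6.12, 5.55 and 5.02 in FFA, against 7.41, 5.603 and 6.92 in Media (difference -1.08, SE 0.49). The 8 genes with the largest negative mean, Ccl2, Edn1, Ccl7, Angptl7 and Spry1 being the others, all had a negative mean difference with INT-767 too. Of the 8 with the largest positive mean 5 kept a positive mean there. Those not yet described are Chp1, at 8.99, 8.99 and 9.67 in FFA, against 7.85, 8.10 and 9.45 in Media, and the predicted genes Gm16973 (0.66) and Gm2427 (0.65), which were higher in FFA in every pair.

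A set of genes differed in the same direction in every pair, replicate 2 included. Genes with a symbol of a predicted gene (Gm or Rik), an olfactory receptor or a small RNA were set aside, which left 1965 genes higher and 1458 lower in every pair. From these were taken the 12 in each direction with the largest value of their smallest pair difference. Their direction over the pairs is thus a property of the choice and carries no test. The choice also favours low p-values in the same arrays, among them those given above for Fabp4 and Cidec. The last gene taken had a smallest pair difference, taken without its sign, of 0.3063 among those higher and 0.32 among those lower, and the next in order were Akap9 with 0.3059 and Tnfrsf13c with 0.3094. Of the genes set aside, Gm2427 (0.4379), Gm16973 (0.3758) and Olfr1024 (0.3133) among those higher and Gm9222 (0.4566) and 1810058I24Rik (0.4258) among those lower had a smallest pair difference above that of the last gene taken. Among the higher genes were Fabp4 and Cidec, described above. Zbtb24, a zinc finger protein needed for DNA methylation at centromeric repeats, was 7.20, 7.09 and 7.01 in FFA, against 6.82, 6.57 and 6.42 in Media. Hrob, a factor of homologous recombination, was 6.77, 6.88 and 6.67 in FFA, against 6.24, 6.51 and 6.21 in Media. Cox7c, a subunit of cytochrome c oxidase, was 5.78, 6.08 and 6.06 in FFA, against 5.48, 5.71 and 5.61 in Media. Every FFA array exceeded every Media array in 8 of the 12 genes, these 3 among them, which the choice favours. With INT-767 in both conditions the mean differences were -0.06 for Zbtb24, 0.04 for Hrob and -0.10 for Cox7c. The others were Zbtb34, Trp53rka, Limch1, Ftl1-ps2, Car9, Fastkd1 and Swt1, with mean differences of 0.35 to 0.54. Ftl1-ps2, also without overlap, was 4.3778, 4.5007 and 4.388 in FFA, against 4.04, 4.15 and 3.96 in Media. It thus passed the filter at 4.5 only through FFA replicate 2, in the group where it was higher, and its direction carries little weight. Car9 has a second transcript, with a difference of 0.02 against 0.45 for the one that stands for the gene. With INT-767, 6 of the 12 had the same sign, and the median of the 12 was -0.001 where it was 0.47 in FFA against Media. Fabp4, Cidec and Hrob were the 3 that were higher in all replicates there too, Hrob by 0.04 in the mean.

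The genes lower in every pair included surface and signaling proteins. H2-K2, of the class I histocompatibility complex, was 6.47, 6.22 and 6.19 in FFA, against 6.90, 6.81 and 6.69 in Media (difference -0.50, SE 0.13). With INT-767 in both conditions its mean difference was 0.09, with 0.69, -0.33 and -0.09 in the replicates. H2-K1, of the same complex, differed by -0.22 between FFA and Media (SE 0.34). Cd34, a sialomucin of endothelial and progenitor cells, was 9.30, 6.55 and 8.14 in FFA, against 10.20, 6.96 and 9.31 in Media. Fzd4, a receptor for Wnt and norrin in vessels, was 8.08, 6.91 and 8.37 in FFA, against 8.44, 7.27 and 8.90 in Media. In Cd34 and Fzd4 the replicates differed from each other by more than FFA differed from Media, and the groups overlapped although each pair had the same sign. The matrix proteoglycan Ogn differed by -1.16, -0.32 and -0.70. The others were Tgm2, Spry1, Zfp971, Steap4, Tubb3, Defa-ps1, Sfi1 and Usp17ld. A second transcript of Sfi1 had 0.12, against -0.51 for the one that stands for the gene. With INT-767, 9 of the 12 had the same sign, none in all 3 replicates, and their median was -0.13 where it was -0.53 in FFA against Media.

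**Figure D5:**
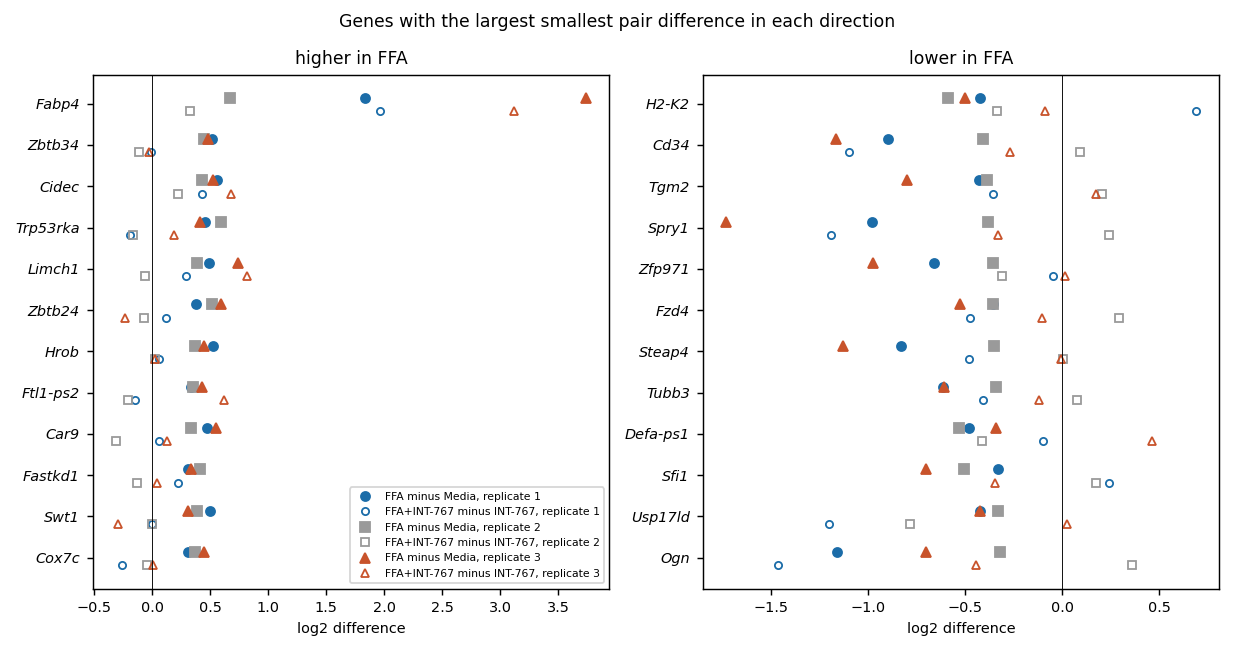
Log2 differences of the 12 genes higher (left) and the 12 lower (right) in FFA that had the largest smallest pair difference, predicted genes and the like set aside. Filled symbols are FFA minus Media and open symbols FFA+INT-767 minus INT-767, with 1 shape and colour per replicate. All filled symbols of a panel lie on 1 side of 0, as the choice requires, whereas open symbols lie on both sides for most genes.

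Mitochondrial and cell cycle genes differed by little. Respiratory chain subunits encoded in the nucleus numbered 70, and 50 had a higher and 20 a lower mean in FFA, with 19 higher (27.1%, against 16.5% of all genes) and 0 lower in all 3 pairs, and a median of 0.05. Ndufb10, of respiratory complex I, differed by 0.27, 0.32 and 0.24. Of 69 genes of the mitochondrial ribosome 53 were higher, 16 in all 3 pairs (23.2%), and Mrpl47 was 8.52, 8.89 and 8.79 in FFA, against 7.88, 8.01 and 8.49 in Media (mean difference 0.61, and 0.22 for its second transcript). Of 58 genes of cell cycle and DNA replication 41 were higher, 18 in all 3 pairs (31%), with a median of 0.04. Kif23, a motor of cytokinesis, differed by 0.25, 0.24 and 0.28. In these lists the median of pair 2 was 0.02, 0.07 and 0.05, so it did not lie apart from those of pair 1 (0.02, -0.02 and -0.01) and pair 3 (0.12, 0.12 and 0.10) as it did for the lipid genes. Ccnd1, a cyclin of the first growth phase, had the largest mean difference of the cell cycle list in size (-0.39), with -1.13, 0.05 and -0.09 in the pairs. With INT-767 in both conditions the medians of the respiratory chain, mitochondrial ribosome and cell cycle lists were 0.05, 0.01 and 0.01. There 49, 41 and 34 genes had a higher mean and 21, 28 and 24 a lower one. Mean differences there were -0.03 for Ndufb10, -0.12 for Mrpl47, 0.02 for Kif23 and -0.18 for Ccnd1. Whether the 2 settings differ was not tested for these lists.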

How the data were processed

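Expression was measured on Affymetrix mouse whole-transcript arrays, 1 per sample, in TSEC cells given FFA, Media, FFA+INT-767 or INT-767, with 3 arrays in each group. The deposited table holds 26076 transcripts as log2 values. By the submitters' processing notes the authors made them in Partek 6.6 with RMA, which corrects the background, quantile-normalizes the arrays and summarizes probes, whereas the methods of the study name a GC-corrected form of RMA. The values are used as deposited. Every transcript exceeded 4.5 in at least 1 of the 12 arrays, so the table had been filtered on low values, and the number of arrays limits the precision.

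A transcript was tested if it exceeded 4.5 in at least 1 of the 6 FFA and Media arrays. FFA was compared with Media by limma 3.58.1 in R 4.3.3, without a block, with Benjamini-Hochberg adjustment over 24838 transcripts, and as an alternative with the replicate number as a block. The replicate numbers come from the sample titles. Deviations from the group means correlated at 0.505, 0.445 and 0.396 between FFA and Media arrays of the same number, so the numbers were taken to pair the arrays. FFA+INT-767 was compared with INT-767 in the same way. Of the transcripts, 14317 carry 1 symbol, 1397 several and 10362 none. A gene stands as its single-symbol transcript with the highest mean over the 6 arrays. Gene lists were compiled by hand, and 846 of their 1071 entries matched a symbol of the table.

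Genes were named by rule: the 12 in each direction with the largest smallest pair difference among those with 1 direction in all pairs, symbols of predicted genes (Gm, Rik), olfactory receptors and small RNAs set aside, the 8 in each direction with the largest mean difference, up to 5 members of each list with the largest difference, members with an unadjusted p under 0.05 in both fits, and the chemokines Ccl2, Ccl7, Cxcl10, Cxcl12 and Cxcl16. Other genes named for their role, for their promoter or as exceptions were chosen after their values were seen. The lists, the rule and the comparisons were chosen with earlier results of these data known. Promoters are RefSeq sequences of GRCm38.p6. Alternatives were other filters on low values, a shift of each array to the same median, a second quantile normalization, another variance model, the mean over every transcript of a gene and each array left out. The removal of both arrays of a replicate number was added after seeing the data.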

Additional observations from a re-analysis of the deposited data

Results flagged for a closer look

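Among the 213 genes chosen by the rule for named genes or named in the text, 4 had a difference that had 1 sign in all 3 replicates of FFA against Media and the opposite sign in all 3 replicates of FFA+INT-767 against INT-767. Chp1 had a mean difference of 0.75 in FFA against Media (1.13, 0.89 and 0.22 in the pairs) and -0.26 with INT-767 (-0.03, -0.31 and -0.44). Zbtb34 had 0.48 in FFA against Media and -0.05 with INT-767, Egfl7 had 0.17 and -0.07, and Osgin1 had -0.22 and 0.17. The difference between both settings, tested by the interaction term of limma over all transcripts, had an adjusted p of 1 for each gene, and 0.943 with the replicate block. Among all 3829 genes with 1 direction in the 3 pairs of FFA against Media, 343 had the opposite direction in all 3 pairs with INT-767 and 523 had the same.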

How the results depend on the processing

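No alternative gave a transcript past an adjusted p of 0.05 by limma. The number at an unadjusted p under 0.05 was 666, 1463 with the replicate block, and 487 to 1421 when 1 array or both arrays of a replicate number were left out, the highest without Media replicate 3 (smallest adjusted p 0.282). With the block and without both arrays of replicate 1, 2 or 3 it was 962, 1571 or 2012. The cause was not tested. The block left the mean differences as they were. Of 1614 log2 differences of named genes recomputed, 56, in 28 genes, changed sign.

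Leaving out arrays gave the following ranges for genes that changed sign. In lipid genes the range was -1.01 to 0.02 for Cyp51, -0.97 to 0.06 for Insig1, -0.72 to 0.08 for Hsd17b7, -0.02 to 0.77 for Scd4, -1.22 to 0.06 for Tgm2, -0.07 to 0.002 for Ppara, -0.09 to 0.02 for Ppard and -0.34 to 0.04 for Pparg. In interferon-stimulated genes and chemokines it was -1.0 to 0.07 for Ifit1, -0.16 to 0.27 for Ifit3, -1.32 to 0.09 for Irgm2, -0.54 to 0.006 for Isg15 and -1.28 to 0.08 for Cxcl12. In matrix genes it was -1.10 to 0.20 for Col1a2, -0.06 to 0.44 for Col4a1, -0.05 to 0.40 for Col4a2, -0.04 to 0.06 for Col18a1, -0.04 to 0.22 for Hspg2, -0.82 to 0.67 for Nid2 and -1.36 to 0.12 for Ogn. In the others it was -0.81 to 0.01 for Ccnd1, -0.11 to 0.61 for Egr1, -0.88 to 0.02 for Fzd4, -0.007 to 1.35 for Npr3, -0.31 to 0.10 for Kdr, -0.06 to 0.06 for Nos3, -0.39 to 0.17 for Krt18 and -0.35 to 0.13 for Krt8.

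A shift to the same median turned Col18a1 to -0.004 and Nid2 to -0.006, a second quantile normalization turned Nid2 to -0.01, Nos3 to 0.008 and Ppara to 0.005, and the mean of all its transcripts turned Krt18 to 0.05. List medians ranged, when arrays were left out, from 0.09 to 0.26 for beta-oxidation, 0.02 to 0.16 for fatty acid uptake, -0.83 to -0.10 for chemokines, -0.29 to -0.03 for vasoactive genes, 0.009 to 0.10 for the cell cycle, -0.40 to 0.13 for matrix genes and -0.84 to 0.39 for mesenchymal markers. The chemokine median was -0.54 over genes above 4.5 in at least 3 arrays. The list medians were not tested against the spread between arrays, and no single transcript passed adjustment, whatever the size of its difference.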
